A study of Mus musculus with 4 samples.

Results

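The polycomb genes described here are 10 genes of the polycomb repressive complexes, namely Ezh2, Eed, Suz12, Jarid2, Mtf2, Phf19, Phc1, Ring1, Rnf2 and Cbx7. They were taken by name, and every probe set annotated to 1 of these symbols alone was read, which gave 30 of the 34945 probe sets with 1 symbol on the array and 10 of 18193 genes. Polycomb proteins keep developmental genes silent by marking histones. Polycomb repressive complex 2 (PRC2) methylates histone H3 on a lysine through its enzyme Ezh2, with Eed and Suz12 as its other core subunits, while Jarid2, Mtf2 and Phf19 are accessory subunits that help bring it to chromatin. Polycomb repressive complex 1 (PRC1) ubiquitinates histone H2A through Rnf2 or its paralogue Ring1, and in its canonical form holds a Phc protein and a Cbx protein that reads the PRC2 mark. In embryonic stem (ES) cells both complexes sit on the CpG-rich promoters of many regulators of development, and Cbx7 is the main Cbx protein there.

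RNA came from 4 cultures of mouse E14.1 ES cells, hybridised to 1 Affymetrix array each. The cells labelled Sall4-null (delta/-, line KO1) and the heterozygous cells (flox/-, line HET18) were each grown without feeders, on gelatin, and with blasticidin-resistant fibroblast feeders. All 4 cultures carried an IRES-blasticidin-resistance gene at the Oct3/4 locus and grew with leukaemia inhibitory factor (LIF) and blasticidin, so that cells expressing Oct3/4 were selected in every group. Each genotype was 1 line, so that a difference between lines cannot be told apart from one between genotypes, and with 1 array per group no spread between replicate cultures was measured. A microarray signal has no common scale between probe sets, so levels were compared between arrays and not between genes.

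The arrays had medians of 16.1 to 18.0 and ratios of 3' to 5' actin probe sets of 1.22 to 1.29. Sall4 itself read higher on the arrays labelled null than on the heterozygous ones, at 1670.5 against 1126.5 without feeders and 1452.4 against 780.8 on feeders for its brighter probe set. A second probe set read 380.5 labelled null against 147.2 heterozygous without feeders and 218.8 labelled null against 88.6 heterozygous on feeders. Which exons these probe sets cover was not analysed here, and a probe outside the deleted part checks nothing, so whether the 2 genotype labels are the right way round was not settled, and the direction of each genotype difference rests on them. All 10 ES cell markers were above the filter signal of 9.46 on every array, with summed signals of 17619 labelled null and 21318 heterozygous without feeders, and of 20673 labelled null and 22084 heterozygous on feeders. The 24 fibroblast markers summed to 35136 and 26752 on the feeder arrays, labelled null and heterozygous, and to 12108 and 5676.6 on the arrays without feeders, labelled null and heterozygous. Without feeders these sums rest mostly on a few bright markers, such as Vim at 4448.5 labelled null and 1730.3 heterozygous. The median marker there read 36.1 labelled null and 18.8 heterozygous. None of these markers was at 0 on any array, and on the heterozygous array without feeders 8 of the 24 lay under the filter signal. The part of feeder RNA in the polycomb values was not tested, and in such bulk RNA fewer cells of a type and less RNA per cell cannot be told apart.

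Suz12, Mtf2 and Phf19 were the members with lower signals on the arrays labelled null in both feeder conditions at an unadjusted p under 0.05, and the sequences upstream of their annotated starts are shown for that reason. They are RefSeq sequences of build GRCm38.p6, each the 250 bases before the start, written 5′ to 3′ on the gene's strand, with every CpG in capitals. Suz12 lies on the plus strand at chr11:79992856-79993105, Mtf2 on the plus strand at chr5:108065424-108065673 and Phf19 on the minus strand at chr2:34913977-34914226.
Suz12: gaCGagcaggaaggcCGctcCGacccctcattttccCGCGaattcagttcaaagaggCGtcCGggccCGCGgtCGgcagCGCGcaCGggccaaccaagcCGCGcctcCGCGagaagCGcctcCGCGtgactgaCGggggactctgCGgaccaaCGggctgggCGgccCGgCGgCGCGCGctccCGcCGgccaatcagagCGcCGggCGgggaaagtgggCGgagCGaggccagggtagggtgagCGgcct
Mtf2: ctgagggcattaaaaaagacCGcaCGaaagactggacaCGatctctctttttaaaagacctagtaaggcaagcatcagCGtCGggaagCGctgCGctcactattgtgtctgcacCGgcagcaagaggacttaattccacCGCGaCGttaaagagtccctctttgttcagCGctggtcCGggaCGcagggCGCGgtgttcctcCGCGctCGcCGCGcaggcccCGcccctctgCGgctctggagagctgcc
Phf19: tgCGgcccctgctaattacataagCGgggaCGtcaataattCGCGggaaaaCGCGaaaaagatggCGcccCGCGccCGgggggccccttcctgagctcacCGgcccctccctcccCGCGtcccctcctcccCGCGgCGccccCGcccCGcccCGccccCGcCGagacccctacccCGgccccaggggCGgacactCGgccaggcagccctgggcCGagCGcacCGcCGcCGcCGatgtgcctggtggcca
The Suz12 stretch held 37 CpG and 73.6% G and C, the Mtf2 stretch 23 and 59.2%, and the Phf19 stretch 31 and 75.2%, against medians of 6 CpG and 52.4% over 32851 promoters of the same length. A second annotated start of Mtf2 had 2 CpG, and the remaining members had 8, for Phc1, to 30, for Ring1. Next, 3 short motifs were searched on both strands of the 12 upstream stretches listed for the 10 genes. They were the octamer bound by Oct factors (ATTTGCAT), an E2F motif in a single spelling (TTTNGCGC, others not searched) and an AT-rich word (AATATT). None of the 3 was found in any of the 12, so that no matches overlapped there, while 1.6%, 1.13% and 6.17% of all promoters held them, which says only that these letters are not in these windows.

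The first question was whether the polycomb genes differed between cells labelled Sall4-null and heterozygous cells. By a limma fit with a genotype and a feeder term, adjusted by the Benjamini-Hochberg method over all 12485 genes tested, 0 of 10 members passed an adjusted p of 0.05, where 0.0320% of all genes did. At an unadjusted p under 0.05, 3 of 10 were lower on the arrays labelled null (Suz12, Mtf2 and Phf19), where 6.50% of all genes were lower, and 0 were higher, where 5.80% were. All 10 members had passed the filter on low signals through their brightest probe set. Their median fitted log2 difference was -0.08, against 0.01 for all genes, and the median size of the difference without its sign was 0.08, against 0.20. In any size, 5 of 10 members were lower on the array labelled null in both feeder conditions, against 29.1% of all genes, and 0 were higher in both, against 30.5%. Of the markers of both cell types, 0 passed between genotypes by limma (lowest adjusted p = 0.1523 for fibroblast and 0.0839 for ES cell markers). The median genotype difference was 0.765 for the 24 fibroblast markers, with 18 higher at an unadjusted p under 0.05, and -0.19 for the 10 ES cell markers, with 5 lower. Their part in the polycomb values was not tested.

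**Figure D1:**
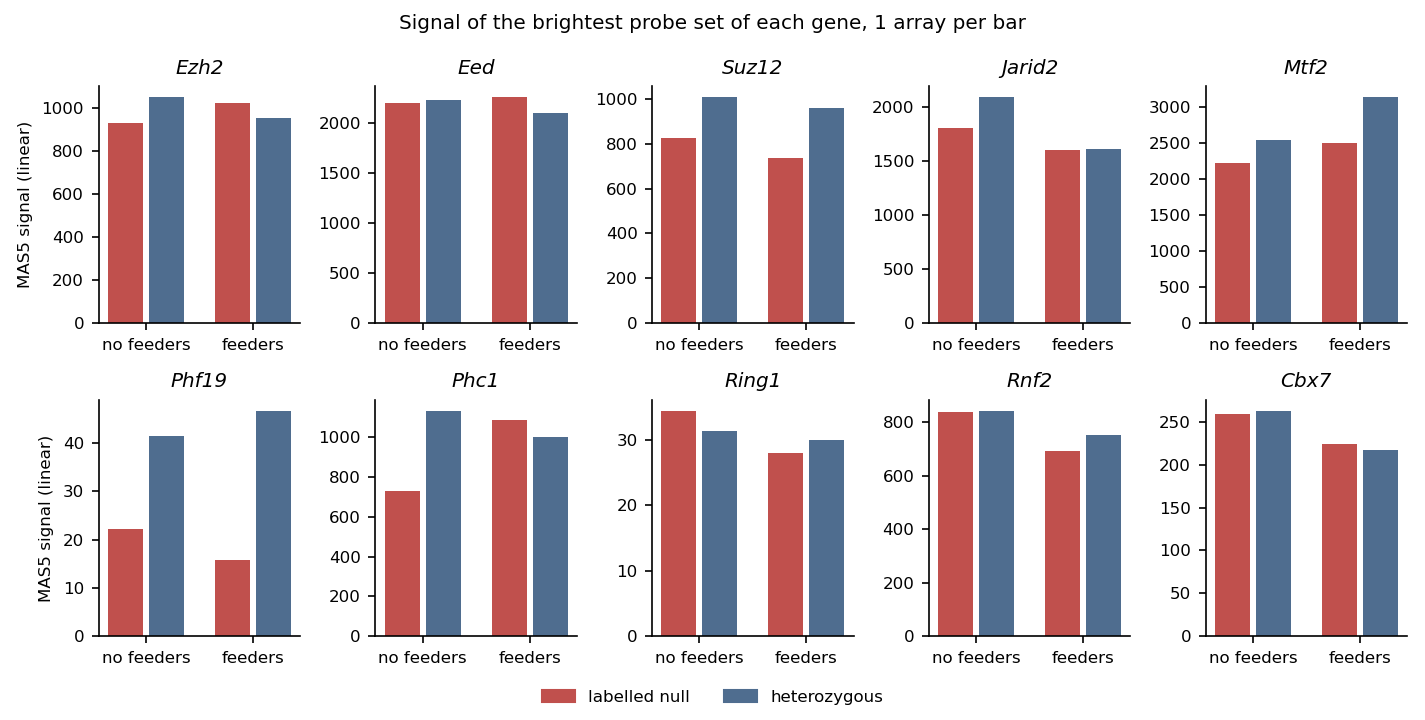
Linear MAS5 signal (vertical axis, from 0) of the brightest probe set of each of the 10 genes, with 1 bar per array, labelled null in red and heterozygous in blue, without feeders on the left and on feeders on the right of each panel. Suz12, Jarid2, Mtf2, Phf19 and Rnf2 are lower on the array labelled null in both conditions, Jarid2 on feeders by 1602.3 against 1606.5. Ezh2, Eed, Phc1 and Cbx7 are lower there without feeders and higher on feeders, and Ring1 the other way round.

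None of the core subunits of PRC2 passed the test between genotypes. Suz12, the zinc finger subunit that holds the complex together, read 826.3 on the array labelled null against 1008.5 on the heterozygous array without feeders. On feeders it read 738.0 labelled null against 962.3 heterozygous. Both arrays labelled null thus lay below both heterozygous arrays, by 1.22-fold without feeders and 1.30-fold on feeders. The fitted log2 difference was -0.33 (SE 0.11, unadjusted p = 0.0259, limma adjusted p = 0.341).

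Ezh2, the methyltransferase, read 930.4 labelled null against 1049.1 heterozygous without feeders, and 1022.2 labelled null against 953.8 heterozygous on feeders. Its 2 pairs went opposite ways, and the fitted difference was -0.04 (SE 0.12, limma adjusted p = 0.935). Eed, the subunit that binds the methylated lysine, read 2202.2 labelled null against 2226.4 heterozygous without feeders, and 2256.5 labelled null against 2097.8 heterozygous on feeders, a fitted difference of 0.045 (SE 0.08, limma adjusted p = 0.869). The arrays overlapped between genotypes for both genes. These p-values do not show that Ezh2 and Eed were alike in the 2 lines.

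None of the accessory subunits of PRC2 passed the test, and their values differed from gene to gene. Mtf2, a Polycomb-like protein that binds CpG-rich DNA, read 2225.6 labelled null against 2547.9 heterozygous without feeders. On feeders it read 2505.7 labelled null against 3136.4 heterozygous. Within each feeder condition the array labelled null was the lower one, although the array labelled null on feeders was close to the heterozygous array without them. The fitted difference was -0.26 (SE 0.08, unadjusted p = 0.0177, limma adjusted p = 0.304).

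Phf19, a second Polycomb-like protein, had the widest range of the 10 genes. It read 22.1 labelled null against 41.4 heterozygous without feeders, and 15.7 labelled null against 46.6 heterozygous on feeders. Both arrays labelled null were below both heterozygous arrays, 1.72-fold without feeders and 2.52-fold on feeders, folds that carry the offset of 4.6 added to each signal. Phf19 was the 1 member at least 1.5-fold lower in both conditions, a size that 2.49% of all genes reached, counting only pairs with at least 1 signal over the median. The fitted difference was -1.06 (SE 0.27, unadjusted p = 0.00901, limma adjusted p = 0.254), outside the 5th to 95th percentile of all genes (-0.63 to 0.64). One of its signals, 15.7, lay under the median of all signals, 17.1, and no detection calls were used here to say which were above background. Its only other probe set read between 1.2 and 8.6 and was under the filter.

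Jarid2, which recruits PRC2 and is itself expressed highly in ES cells, read 1806.5 labelled null against 2088.3 heterozygous without feeders, and 1602.3 labelled null against 1606.5 heterozygous on feeders. The pair without feeders was 1.16-fold apart and the pair on feeders was level, with a fitted difference of -0.11 (SE 0.10, limma adjusted p = 0.706). The sign turned, at 0.08, in a fit without the heterozygous array grown without feeders. That fit had only a genotype term, so the feeder difference entered its value, and neither pair above was higher on the array labelled null.

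**Figure D2:**
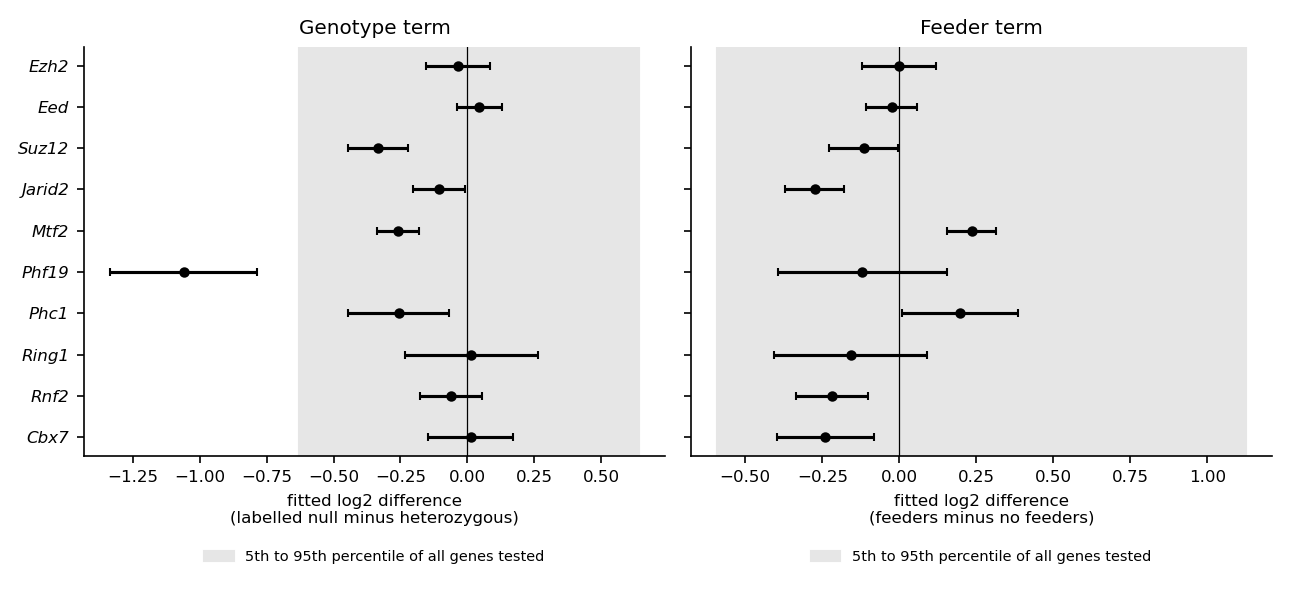
Fitted log2 differences (horizontal axes) of the 10 genes with standard errors from limma as bars, genotype on the left and feeders on the right. Grey spans the 5th to 95th percentile of all 12485 genes tested. Phf19 lies outside the grey span for genotype (-1.06), and every member lies inside it for feeders.

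In PRC1 the signals of the brightest probe sets of the ubiquitin ligases and of Cbx7 were near each other in the 2 genotypes. Rnf2, the main ligase in ES cells, read 837.8 labelled null against 842.9 heterozygous without feeders, and 693.3 labelled null against 750.8 heterozygous on feeders (fitted difference -0.06, SE 0.12, limma adjusted p = 0.872). Its paralogue Ring1 read 34.4 labelled null against 31.3 heterozygous without feeders and 27.9 labelled null against 30.0 heterozygous on feeders, a difference of 0.015 (SE 0.25, limma adjusted p = 0.989) that became -0.04 with quantile normalization and -0.045 with median centring. Cbx7 read 258.9 labelled null against 262.6 heterozygous without feeders and 223.5 labelled null against 216.6 heterozygous on feeders (0.01, SE 0.16, limma adjusted p = 0.983), and -0.05 with median centring.

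Phc1, a polyhomeotic subunit of canonical PRC1, had genotype pairs of opposite sign in the 2 feeder conditions. Without feeders it read 729.3 labelled null against 1129.9 heterozygous, 1.55-fold lower. On feeders it read 1083.3 labelled null against 1000.0 heterozygous, 1.08-fold higher. The array labelled null without feeders was the low one, and the other three lay between 1000.0 and 1129.9. The 2 log2 differences, -0.63 and 0.115, were 0.74 apart, and 16.0% of all genes likewise had pairs in opposite directions at least 1.5-fold apart. In the pair without feeders alone, Phc1 and Phf19 were the 2 of 10 members at least 1.5-fold lower, a size that 9.26% of all genes reached. The fitted difference of Phc1 was -0.26 (SE 0.19, limma adjusted p = 0.64). It was 0.03 in a fit with only a genotype term and without the array labelled null grown without feeders. That array also had the lowest summed ES cell markers of the 4, 17619, and more fibroblast marker signal than its heterozygous counterpart. Their part in the Phc1 value was not tested.

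The several probe sets of a gene share its transcript and are not replicates, but they show whether a value rests on 1 of them. When every probe set was tested, 25 of the 30 passed the filter and 0 were called between genotypes by limma, where 0.0609% of all probe sets were (lowest adjusted p = 0.231). For Mtf2, 4 of 5 tested probe sets were lower on the array labelled null in both conditions. The 3 dimmer of these 4 differed by -0.42 to -0.45, more than the brightest at -0.26. The fifth, near a signal of 54.2, was higher in both at 0.27 (SE 0.22, limma adjusted p = 0.692). For Suz12, 5 of 6 were lower in both, and the 3 brightest differed by -0.33, -0.28 and -0.45. The sixth, with signals of 26.7 labelled null against 16.6 heterozygous without feeders and 30.6 labelled null against 17.9 heterozygous on feeders, went the other way at 0.60 (SE 0.27, limma adjusted p = 0.456). The mean over all 6 Suz12 probe sets was accordingly -0.14.

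All 3 Jarid2 probe sets were lower on the array labelled null without feeders, by 1.16-fold, 1.35-fold and 1.23-fold, and within 1.05-fold of the heterozygous array on feeders. For Rnf2, the 2 bright probe sets differed by -0.06 and -0.13 and a dim one by 0.44 (SE 0.28, limma adjusted p = 0.603). The dimmest tested one was 1.47-fold higher labelled null without feeders and 1.79-fold lower on feeders (fitted -0.14, SE 0.42, limma adjusted p = 0.931). Over all 25 tested probe sets, 17 had the same direction in both conditions, where 58.5% of all probe sets did, and 8 went opposite ways. The 17 were 14 lower and 3 higher on the array labelled null, against 6205 lower and 7245 higher among all 22986 probe sets tested. These 25 probe sets come from 10 genes, and 4 Mtf2 and 5 Suz12 probe sets make up 9 of the 14.

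**Figure D3:**
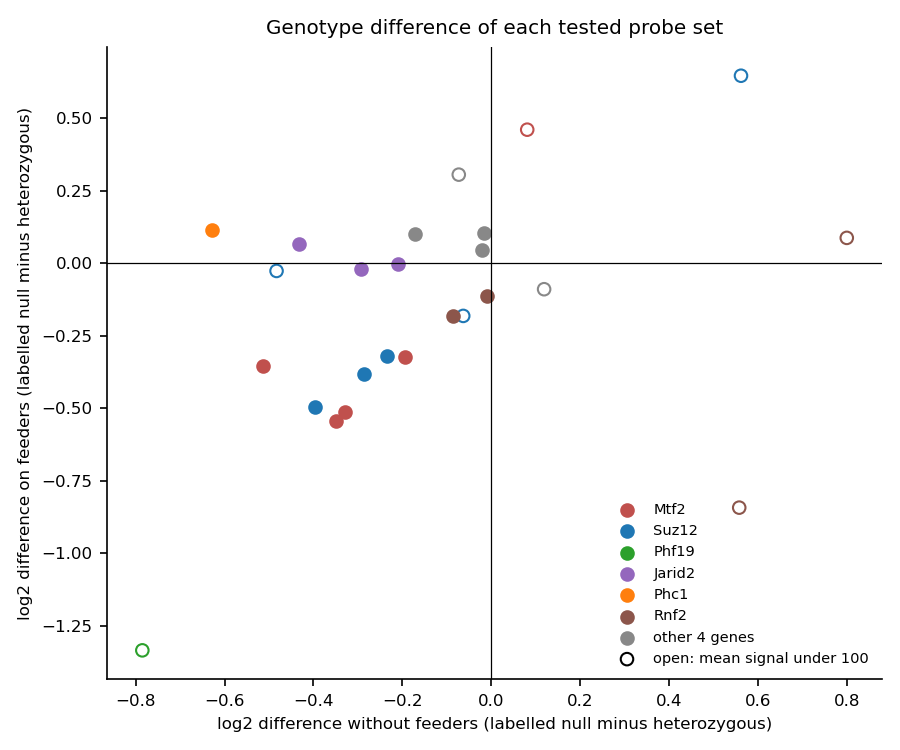
Log2 difference between the array labelled null and the heterozygous array for each of the 25 tested probe sets, without feeders (horizontal) and on feeders (vertical), coloured by gene, with open circles for a mean signal under 100. The bright Mtf2 and Suz12 probe sets lie together at the lower left, and 1 dim probe set of each gene lies at the upper right.

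The second question was how the same genes differed between cultures with and without feeders. By the feeder term of the fit, 0 of 10 members passed an adjusted p of 0.05, where 4.77% of all genes did. At an unadjusted p under 0.05 there were 2, Jarid2 lower and Mtf2 higher on feeders, where 21.8% of all genes lay. In both genotypes alike, 0 of 10 members were at least 1.5-fold higher on feeders, against 7.95% of all genes, and 0 at least 1.5-fold lower, against 2.04%. The median fitted log2 difference was -0.12 for the 10 members and 0.035 for all genes. The median of the 24 fibroblast markers was 4.08, and 21 of them rose on feeders by limma.

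Jarid2 read 1602.3 with feeders against 1806.5 without them in cells labelled null, and 1606.5 with feeders against 2088.3 without them in heterozygous cells. Both feeder arrays were thus below both arrays without feeders, with a fitted difference of -0.275 (SE 0.10, unadjusted p = 0.02985, limma adjusted p = 0.179). Its other 2 probe sets differed by -0.14 and -0.24. Mtf2 read 2505.7 with feeders against 2225.6 without in cells labelled null, and 3136.4 with feeders against 2547.9 without in heterozygous cells. Its fitted difference was 0.235 (SE 0.08, unadjusted p = 0.0259, limma adjusted p = 0.166). A second Mtf2 probe set differed by 0.46 (SE 0.115, limma adjusted p = 0.0733 over every probe set). The remaining tested ones differed by 0.245, 0.236 and -0.15, so that the probe sets of this gene did not all share a direction by feeders.

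Rnf2 and Cbx7 read lower on feeders in both genotypes without passing the test, as did Jarid2, Suz12 and Ring1. Rnf2 had 693.3 with feeders against 837.8 without in cells labelled null and 750.8 with feeders against 842.9 without in heterozygous cells (fitted -0.22, SE 0.12, limma adjusted p = 0.335). Cbx7 had 223.5 with feeders against 258.9 without in cells labelled null and 216.6 with feeders against 262.6 without in heterozygous cells (fitted -0.24, SE 0.16, limma adjusted p = 0.431). A dimmer Cbx7 probe set differed by -0.75 (SE 0.26, limma adjusted p = 0.154). Phc1 was the member whose feeder pairs differed most from each other, 1.48-fold higher with feeders in cells labelled null and 1.13-fold lower in heterozygous cells. For the remaining 5 members the fitted feeder difference lay between -0.16 for Ring1 and -0.001 for Ezh2.

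Other genes of the pathway were taken from lists of known subunits and partners. Of 8 further PRC2 subunits and cofactors, all tested, 0 passed in either direction between genotypes by limma. At an unadjusted p under 0.05, 2 were lower and 1 higher, where 6.50% and 5.80% of all genes were. Aebp2, a zinc finger subunit that stabilises PRC2, read 666.4 labelled null against 894.3 heterozygous without feeders and 551.2 labelled null against 935.7 heterozygous on feeders. Both arrays labelled null were below both heterozygous ones, with a fitted difference of -0.59 (SE 0.14, limma adjusted p = 0.221). The related cofactors Lcor and Lcorl differed by -0.44 (SE 0.17) and -0.35 (SE 0.24), and the histone-binding subunit Rbbp7 by 0.18 (SE 0.07), with limma adjusted p of 0.397, 0.604 and 0.395. Ezh1, the paralogue of Ezh2, differed by 0.74 (SE 0.19) by feeders and Epop, a PRC2 partner in ES cells, by -0.67 (SE 0.15), with limma adjusted p of 0.0975 and 0.0719.

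Among 25 of 28 further PRC1 subunits and partners that were tested, 0 passed between genotypes, with 4 higher and 1 lower at an unadjusted p under 0.05, where 5.80% and 6.50% of all genes were. In any size 12 of 25 read higher in both conditions on the array labelled null and 5 lower, where 30.5% and 29.1% of all genes did, and the list median was 0.16, against 0.01 for all genes. Bmi1, a Polycomb ring finger protein, read 223.3 labelled null against 93.0 heterozygous without feeders and 193.7 labelled null against 143.8 heterozygous on feeders (fitted 0.82, SE 0.24, limma adjusted p = 0.288). The paralogues of Phc1 read higher on the arrays labelled null. Phc3 differed by 0.795 (SE 0.21, limma adjusted p = 0.254) and Phc2 by 0.72 (SE 0.25, limma adjusted p = 0.359). Phc2 read 456.6 labelled null against 196.6 heterozygous without feeders and 243.8 labelled null against 206.0 heterozygous on feeders. Scmh1, a relative of the fly Scm protein, read 37.1 labelled null against 80.2 heterozygous without feeders and 55.8 labelled null against 98.4 heterozygous on feeders, a difference of -0.90 (SE 0.21, limma adjusted p = 0.221). By feeders Phc3 differed by 0.95 (SE 0.21, limma adjusted p = 0.066) and Pcgf5, another ring finger protein, by -0.80 (SE 0.245, limma adjusted p = 0.141). Bmi1, Phc2 and Phc3 had their larger genotype fold without feeders. The summed fibroblast markers were also higher there on the array labelled null (12108 against 5676.6), mostly through a few bright ones. Of the 24 markers, 21 were higher labelled null in both feeder conditions, while Col1a2, Thy1 and Pdgfra were lower without feeders. The part of fibroblast RNA in the Bmi1, Phc2 and Phc3 values was not tested.

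Enzymes that work against polycomb marks and their partners gave 0 of 6 called between genotypes. At an unadjusted p under 0.05 by limma 2 were higher, where 5.80% of all genes were. Kdm6b, a demethylase of the PRC2 mark, read 166.2 labelled null against 102.2 heterozygous without feeders and 233.6 labelled null against 167.9 heterozygous on feeders (0.57, SE 0.18, limma adjusted p = 0.309). Bap1, the deubiquitinase that removes the PRC1 mark, differed by 0.44 (SE 0.15, limma adjusted p = 0.348), Uty, a relative of the demethylase Kdm6a, by 0.45 (SE 0.31, limma adjusted p = 0.608) and Asxl2, a partner of Bap1, by -0.155 (SE 0.19, limma adjusted p = 0.79).

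**Figure D4:**
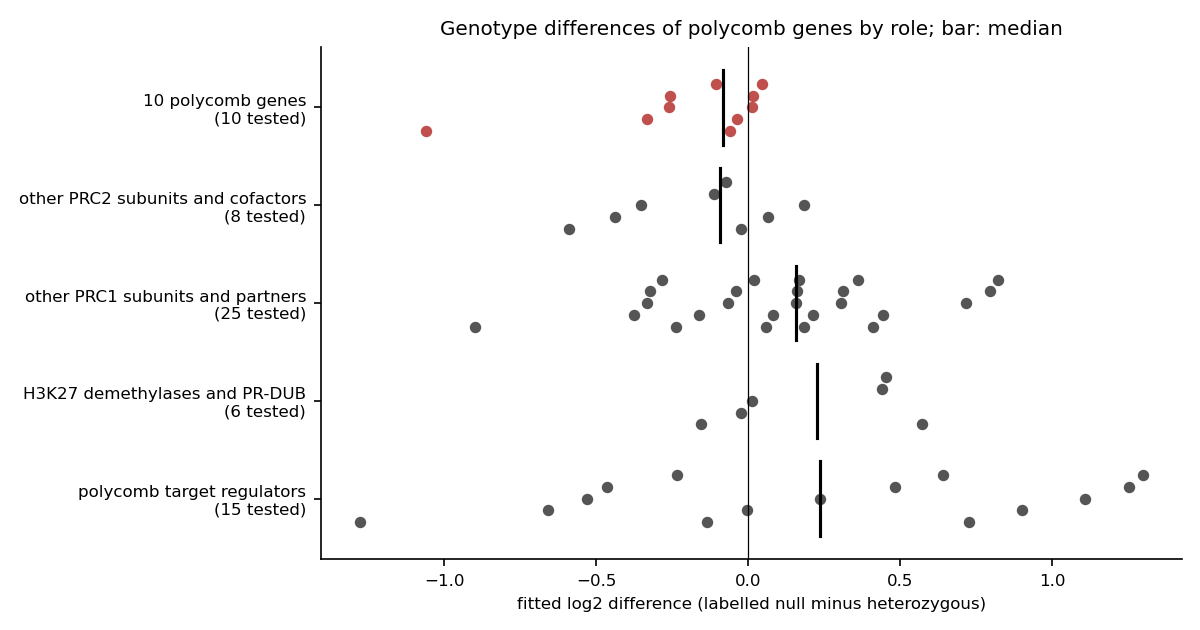
Fitted log2 genotype difference (horizontal axis, labelled null minus heterozygous) of each tested gene, by role, with a bar at each median; vertical offsets within a row only separate points. The medians are -0.08 for the 10 polycomb genes, -0.09 for other PRC2 genes, 0.16 for other PRC1 genes, 0.23 for opposing enzymes and their partners and 0.24 for target regulators.

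Of 28 developmental regulators known as polycomb targets in ES cells, 24 had a probe set of their own and 15 passed the filter. Between genotypes 0 of 15 passed by limma, with a median of 0.435 without feeders but -0.075 on feeders. At an unadjusted p under 0.05, 3 were higher and 1 lower, where 5.80% and 6.50% of all genes were. The largest differences were those of Hoxd9, a homeobox gene, at 1.30 (SE 0.54), Fgf5, a growth factor of the epiblast, at -1.28 (SE 0.37), Cdx2, a trophectoderm factor, at 1.252 (SE 0.45) and Wnt5a, a secreted Wnt protein, at 1.11 (SE 0.345), with limma adjusted p from 0.288 to 0.419. Hoxd9 was 5.01-fold higher labelled null without feeders but 1.21-fold on feeders. Its heterozygous signal without feeders, 3.1, and the Fgf5 signal labelled null on feeders, 1.2, lay under the filter signal of 9.46. By feeders 2 of 15 changed by limma, where 4.77% of all genes did. Cdx2 fell to 4.9 with feeders against 82.2 without in cells labelled null and to 2.1 with feeders against 17.1 without in heterozygous cells (-2.44, SE 0.45, limma adjusted p = 0.043). Both feeder signals of Cdx2 lay under the filter signal of 9.46, so that it passed the filter through the arrays without feeders, and the size of its difference depends on the offset, at -3.18 with an offset of 1 (adjusted p = 0.0413) and -1.50 with the median signal as offset (adjusted p = 0.0737). Wnt5a rose to 117.9 with feeders against 40.9 without in cultures labelled null and to 84.3 with feeders against 8.9 without in heterozygous cultures (2.07, SE 0.345, limma adjusted p = 0.0335). The Wnt5a signal of 8.9 also lay under the filter signal. Arrays of feeder cultures also hold feeder RNA, and its part in the Wnt5a value was not tested. The call was lost in 7 of 12 alternatives for Cdx2 and in 9 of 14 for Wnt5a, among them no filter (adjusted p = 0.102 and 0.0948). The Cdx2 value was -1.44 without the array labelled null grown without feeders, and that of Wnt5a 1.20 without the heterozygous array grown without feeders. Those fits had only a feeder term, so the genotype difference entered their values. As the mean of its probe sets the Wnt5a value was 1.15. Both sets of alternatives were chosen after the data were seen.

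The genes most like Phf19, the member with the widest range, were sought by the distance between log2 profiles over the 4 arrays, each centred on its own mean. The nearest 5 of all genes tested were Sapcd1 (distance 0.09), Zfp296 (0.12), 4930444M15Rik (0.16), Abcb1a (0.17) and Cox7a1 (0.20). Zfp296, a zinc finger gene expressed in ES cells, was the brightest of these at 124.6 to 303.0, with 170.3 labelled null against 303.0 heterozygous without feeders and 124.6 labelled null against 300.9 heterozygous on feeders. None of the 5 passed between genotypes by limma (adjusted p from 0.16 to 0.335).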

How the data were processed

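The authors deposited 1 intensity, a linear MAS5 signal, per probe set and array, for 45101 probe sets and 4 arrays. Per the submitters' processing notes they came from MAS5; no version is given in the sources used here. Each array had a 2% trimmed mean of 100.0, so no further scaling was applied. Control probe sets (64) and those with several symbols (932) or none (9160) were left out.

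Signals became log2(signal + 4.6), 4.6 being their 25th percentile. A gene's value was that of its brightest probe set, and genes with a mean under the 40th percentile (log2 3.81) were left out, which left 12485. The model used limma 3.58.1 in R 4.3.3 (lmFit, eBayes with a trend; terms genotype and feeders; two-sided; Benjamini-Hochberg over all genes). It leaves 1 residual degree of freedom, the disagreement of the 2 feeder conditions, beside 4.75 prior ones. Pairs of single arrays carry no test. The number of arrays limits the precision.

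Members, lists and tests were chosen with earlier results of these data known. Named genes were all members, up to 4 genes per list by genotype and 2 by feeders, and the 5 profiles nearest the member with the widest range. Alternatives changed the offset, filter, normalization, trend, probe sets, factors and arrays.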

Additional observations from a re-analysis of the deposited data

Results flagged for a closer look

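Phc1 had genotype differences of opposite sign in the 2 feeder conditions, on 1 pair of arrays each. Its log2 difference, labelled null minus heterozygous, was -0.63 without feeders and 0.115 on feeders, the second 0.056 with median centring. The difference between the 2 was not tested, since it is the only residual of the model. It lay between 0.69 and 0.75 over the 8 alternatives in offset, filter, scaling and choice of probe set, chosen for this value after the data were seen. Phc1 has 1 probe set, so those in filter and choice of probe set returned the main value of 0.743. Only those in offset and scaling could move it.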

How the results depend on the processing

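Replicate cultures could not be paired because each group held 1 array and the labels give no replicate numbers. Through its feeder term the model compared the genotypes within each feeder condition. Between genotypes, 4 genes were called over the whole table by limma. With quantile normalization or median centring 7 were, with every probe set 14, and 0 with no filter, no variance trend, the 60th percentile as filter, a model with 1 factor or any array left out (0 to 0, each with that model). By feeders 595 genes were called, and 269 with no filter, 268 with the filter at the 60th percentile, 384 with the mean of probe sets, 1354 with every probe set, 183 with no trend, 231 with 1 factor and 23 to 534 without 1 array. No alternative called a member (lowest limma adjusted p = 0.111 for the gene values). With every probe set tested, an Mtf2 probe set other than the brightest had a limma adjusted p of 0.0733 by feeders. The 1 member at least 1.5-fold lower in both conditions, Phf19, became 0 with the offset at the median signal, the mean of probe sets or a 2-fold threshold.

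Of 276 member values under alternatives, 250 kept their sign and 26 turned it. The alternatives in filter and trend, the fit of every probe set and the model with 1 factor on all arrays left each fitted difference at its main value. Its sign could not turn there. Nor could it with the mean of probe sets for Ezh2, Phc1 and Ring1, which have 1 probe set each. The count of kept signs therefore overstates how far the values were checked. The genotype differences of Suz12, Mtf2 and Phf19 kept theirs in all alternatives run, at -0.41 to -0.14, -0.41 to -0.11 and -1.26 to -0.66. These genes were singled out for being lower in both feeder conditions, so a kept sign adds no support. Normalization turned the feeder differences of Ezh2 (0.042) and Eed (0.045) under quantile normalization, the genotype difference of Ring1 under quantile normalization (-0.041) and median centring (-0.045), and those of Eed (-0.015) and Cbx7 (-0.048) under median centring. The mean of probe sets turned the feeder differences of Eed (0.03) and Phf19 (0.26). Without 1 array the genotype differences that turned ran from -0.105 to 0.032 for Ezh2, -0.295 to 0.083 for Jarid2, -0.541 to 0.027 for Phc1, -0.12 to 0.15 for Ring1, -0.197 to 0.074 for Rnf2 and -0.12 to 0.15 for Cbx7. The feeder differences that turned ran from -0.087 to 0.085 for Ezh2, -0.078 to 0.027 for Eed, -0.305 to 0.076 for Suz12, -0.79 to 0.55 for Phf19 and -0.12 to 0.51 for Phc1. Each fit without an array had a single term, so the other factor entered its values. In the brightest probe sets, which gave these values, both genotype pairs of Jarid2 and Rnf2 were lower on the array labelled null. Both feeder pairs of Suz12 were lower with feeders. In these probe sets no pair of arrays went the way of the turned value, while each gene had a dimmer probe set with a pair that did. What turned the signs was not tested. Each group is 1 array of 1 line, so line, culture and array cannot be told apart from the group, and Phf19 and Ring1 had the largest standard errors of the 10 genes (0.27 and 0.25 for genotype).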
